A study of Mus musculus with 6 samples.

Results

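The nuclear genes of the mitochondrial respiratory chain were compared between neocortex of Bcl11a mutant and control mouse embryos. Members were chosen by symbol from the array's annotation: genes named Nduf with a, b, c, s or v and a digit, the genes Sdha to Sdhd, the Uqcr genes, Cyc1, and the Cox4i to Cox8 subunits. Of 19938 genes tested, 65 were members, measured in 6 arrays of 1 embryo each at embryonic day 14.5. The 3 controls were wild type (Bcl11a+/+), and the 3 mutants carried the recombined floxed allele on both chromosomes (Bcl11a Δflox/Δflox). No treatment was given to either group. Neither the labels nor the series text names the driver of the recombination or the cells that lost the gene. Since whole tissue was profiled, fewer cells of a type and less RNA per cell cannot be told apart.

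The respiratory chain is a series of protein complexes in the inner mitochondrial membrane that passes electrons from nutrients to oxygen and pumps protons. Complex I takes electrons from NADH and complex II from succinate. Complex III passes them from ubiquinol to cytochrome c, and complex IV, cytochrome c oxidase, hands them to oxygen. The proton gradient then drives ATP synthase. Most subunits are encoded in the nucleus, and a few catalytic ones in mitochondrial DNA. Neural progenitors draw much of their energy from glycolysis, and neurons depend more on respiration.

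The transcription factors NRF-1, GABP and YY1 are known to bind promoters of many of these genes. Of the 65 members, 51 had a promoter window of 300 bases in the RefSeq table (build GRCm38.p6), which runs from 250 bases before the transcription start to 50 after it. Windows were searched on both strands. The NRF-1 letters GCGCNTGCG were in 14 of the 51 members (27.5%) and in 6.31% of all 32851 windows. The GABP letters CCGGAAG were in 11 members (21.6%) and in 8.86% of all windows, and the YY1 letters AANATGGCG in 7 members (13.7%) and 2.38% of all windows. Of the 51 members, 28 had at least 1 of these 3 motifs. Their median log2 difference between mutants and controls was 0.00044, and that of the 23 members without one was -0.0037. A match is a description of the letters and was not tested as a binding site. Parts of 4 promoters are shown because they hold NRF-1 letters in genes that the results return to. Cox6a1 and Ndufs6 are among the members with the highest and the lowest differences, and Sdha and Sdhd encode subunits of complex II. All 4 genes lie on the minus strand. Each stretch of 170 bases reads 5′ to 3′ along the gene and lies before its start, with every match to the NRF-1 or GABP letters in capitals.
Cox6a1, chr5:115348960-115349129: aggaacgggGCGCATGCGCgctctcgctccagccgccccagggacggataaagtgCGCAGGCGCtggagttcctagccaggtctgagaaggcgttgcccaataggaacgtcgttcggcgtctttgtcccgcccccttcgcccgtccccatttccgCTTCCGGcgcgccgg
Ndufs6, chr13:73328483-73328652: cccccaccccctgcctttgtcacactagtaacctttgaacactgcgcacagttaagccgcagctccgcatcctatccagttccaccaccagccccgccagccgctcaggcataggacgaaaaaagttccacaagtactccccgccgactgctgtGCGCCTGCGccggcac
Sdha, chr13:74350241-74350410: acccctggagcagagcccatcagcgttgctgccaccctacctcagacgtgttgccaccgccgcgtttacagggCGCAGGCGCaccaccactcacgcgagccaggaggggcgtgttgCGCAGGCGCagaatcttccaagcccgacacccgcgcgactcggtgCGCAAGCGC
Sdhd, chr9:50603850-50604019: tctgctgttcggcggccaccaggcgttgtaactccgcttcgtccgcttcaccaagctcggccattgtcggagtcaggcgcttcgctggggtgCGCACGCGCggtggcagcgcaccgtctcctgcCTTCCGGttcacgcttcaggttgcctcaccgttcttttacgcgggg
Of the 3 capital runs in Cox6a1, the first and second are NRF-1 matches and the last is a GABP match. In Sdhd the first is an NRF-1 and the second a GABP match, and the runs in Sdha and Ndufs6 are NRF-1 matches. The genes of the factors did not pass the test described next. Nrf1 differed by -0.07, Gabpa, a GABP subunit gene, by 0.07, and Yy1 by -0.04 on the log2 scale (limma adjusted p = 0.9995 each). The direction of Gabpa turned in the fit without the arrays numbered 1.

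Values are the authors' log2 expression values, and a difference is always mutant minus control on that scale. All genes were fitted together in limma, and a gene was called changed at a Benjamini-Hochberg adjusted p under 0.05 over all genes. Errors beside means are SDs over 3 arrays, errors beside differences are limma's standard errors, and intervals are its 95% intervals for 1 gene at a time. Correlations between arrays over the tested genes were 0.995 to 0.998, and array medians lay between 7.23 and 7.33. Of 12 neocortex markers, 10 were measured, with mean levels from 9.94 to 12.53, and none was called. Bcl11a read 12.20, 12.30 and 12.26 in control arrays and 11.41, 11.49 and 11.34 in mutant arrays. It fell by 0.84 ± 0.06 (SE, limma adjusted p = 0.00201) with no overlap of the groups, so the arrays follow their labels. No label says whether its probes fall inside the deleted stretch. Over all genes the lowest difference was that of Xist, at -2.30. The sex of the embryos was not a term of the fit, and its part in the differences was not tested.

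None of the 65 members was called changed by limma in either direction, while 57 of all 19938 genes (0.286%) were. The lowest adjusted p of a member was 0.514, for Ndufb3. At an unadjusted p under 0.05 there were 4 members (6.15%), beside 6.05% of all genes. These were Cox6a1 and Ndufb8, with higher values in the mutants, and Ndufb3 and Ndufa3, with lower values. Their number was 2 without mutant replicate 1, and 1 without control replicate 2 or mutant replicate 2. The differences ran from -0.19 for Ndufb3 to 0.20 for Cox6a1, which is 1.14-fold lower and 1.15-fold higher. The median over the members was 0.0021, beside 0.019 over all genes. Positive differences were found in 33 of 65 members (50.8%) and in 60.3% of all genes. The number positive was 22 without control replicate 1 and 42 without mutant replicate 1, so no common direction was seen. For 6 members the values of mutants and controls were fully apart. In 3 of them (4.62%) all mutants were higher, beside 7.69% of all genes, and in 3 (4.62%) all mutants were lower, beside 2.85% of all genes.

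The intervals bound how large a difference the arrays allow. For all 65 members the 95% interval lay within a 1.5-fold change in either direction, as it did for 97.9% of all genes. It lay within 0.32 of 0 on the log2 scale for 53 members (81.5%) and for 82.9% of all genes. The widest member interval was that of Uqcr11, from -0.53 to 0.41, and among the narrowest was that of Cyc1, from -0.10 to 0.16. The median SD within a group was 0.10 for the members and 0.09 for all genes. These intervals hold for 1 gene at a time and do not show that the levels were equal. They apply to the array values, and since RMA compresses differences of dim probe sets, they may not bound the change in RNA there.

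**Figure D1:**
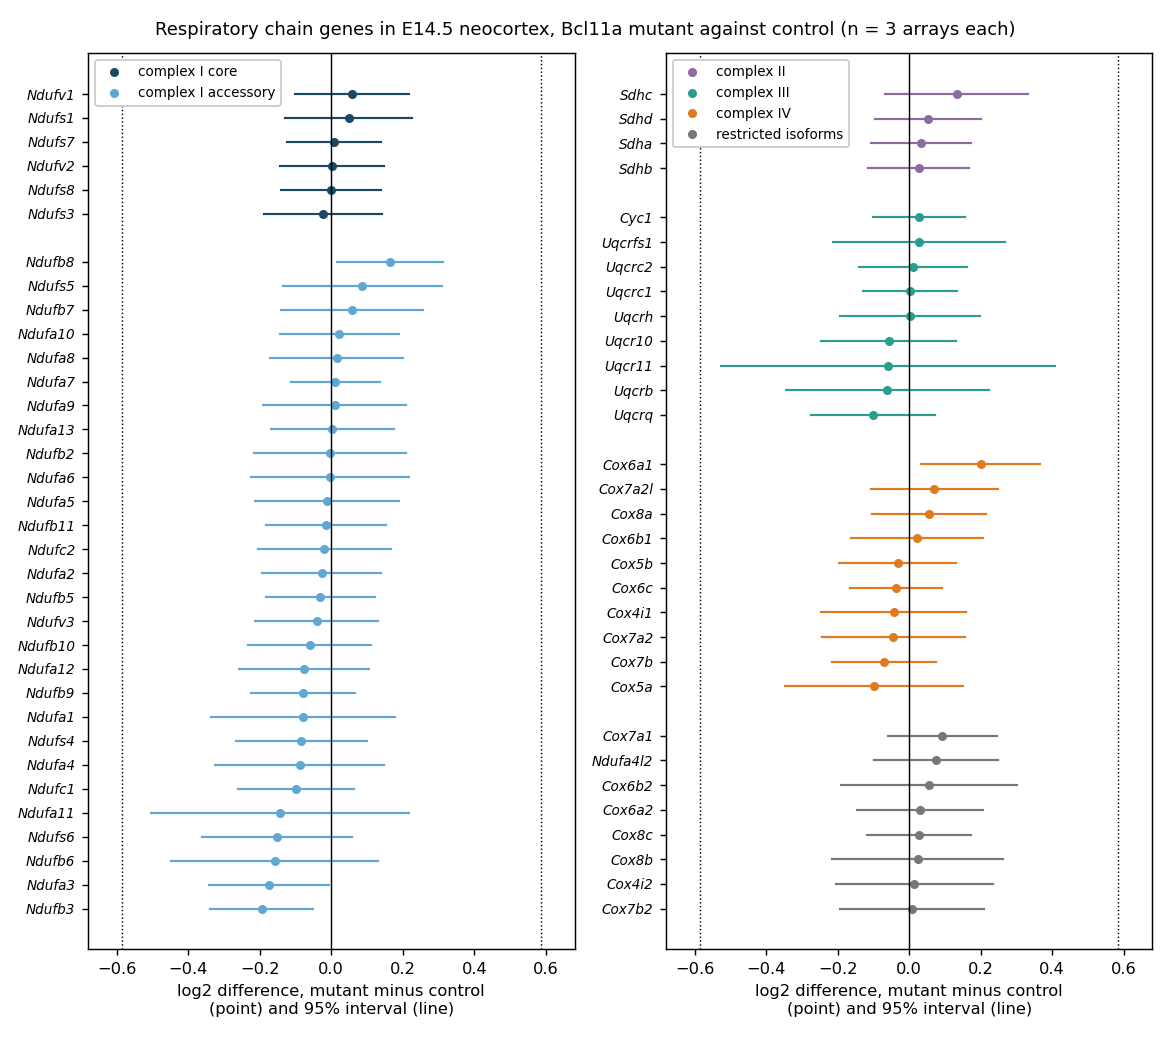
Log2 difference of mutant minus control (point) with its 95% limma interval (line) for each of the 65 members, by complex, with 3 arrays in each group. Dotted lines mark a 1.5-fold change, and every interval lies between them.

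The nuclear core subunits of complex I, most of which bind the flavin, the iron-sulfur clusters or the substrates, differed little. The 6 core genes tested had differences from -0.02 for Ndufs3 to 0.06 for Ndufv1. Ndufv1, which binds NADH and flavin, read 10.81, 11.01 and 10.92 in controls and 11.01, 10.99 and 10.91 in mutants, and the groups overlapped. Ndufs1, the largest iron-sulfur subunit, differed by 0.05 (interval -0.13 to 0.23). Ndufs7 and Ndufs8, iron-sulfur subunits near the quinone site, differed by 0.0077 (-0.12 to 0.14) and -0.0012 (-0.14 to 0.14). Ndufv2, the partner of Ndufv1 in the NADH module, differed by 0.0025 (-0.14 to 0.15). Of the 6 differences 4 were positive, or 2 without control replicate 1. Intervals of all 6 core genes lay within 0.32 of 0.

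The accessory subunits of complex I hold the most members and the 5 lowest differences. Of 28 genes, 20 were lower and 8 were higher in the mutants, with a median of -0.03, and none was called. Mutant replicate 1 was the lowest mutant for 24 of the 28. Without it 15 of 28 were higher, with a median of 0.0086, so the lean to lower values rested on that array, and without control replicate 1 or mutant replicate 3 the number higher was 5. Ndufb3, a small subunit of the membrane arm, read 8.37, 8.47 and 8.38 in controls and 8.14, 8.26 and 8.24 in mutants. Every mutant was below every control, and the difference was -0.19 ± 0.06 (SE, limma adjusted p = 0.514). Ndufa3, another membrane arm subunit, read 10.86, 11.02 and 10.83 in controls and 10.65, 10.74 and 10.80 in mutants. These groups were also apart, by a narrow gap, with a difference of -0.17 ± 0.07 (SE, limma adjusted p = 0.786). Ndufb8, also of the membrane arm and often used as a protein marker of assembled complex I, went the other way. It read 9.54, 9.71 and 9.68 in controls and 9.81, 9.84 and 9.77 in mutants. Its difference was 0.16 ± 0.07 (SE, limma adjusted p = 0.710), with all mutants above all controls.

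Ndufs6, Ndufb6 and Ndufa11 had low differences but overlapping groups, since their arrays differed more among themselves. Ndufs6, a zinc-binding subunit needed for assembly, read 9.23, 9.34 and 9.50 in controls and 9.07, 9.20 and 9.34 in mutants, a difference of -0.15 (interval -0.36 to 0.06). Ndufb6, of the membrane arm, read 11.30, 11.47 and 11.60 in controls and 11.03, 11.32 and 11.54 in mutants, a difference of -0.16 (-0.45 to 0.13). Within each group the highest array of both genes was replicate 3 and the lowest was replicate 1. Ndufa11 read 10.60, 10.46 and 10.90 in controls and 10.31, 10.35 and 10.86 in mutants, a difference of -0.14 (-0.50 to 0.22). In this gene the replicates numbered 3 stood above the others in both groups. Ndufa11 had a further single-symbol probe set, which differed by -0.01. Ndufa4, now assigned to complex IV by biochemical work, differed by -0.09 (-0.32 to 0.15). Ndufs5, which sits on the intermembrane side of the complex, was the second highest accessory gene, at 0.09 (-0.14 to 0.31). Its annotation also lists a probe set shared with a pseudogene, Ndufs5-ps, which differed by -0.03.

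**Figure D2:**
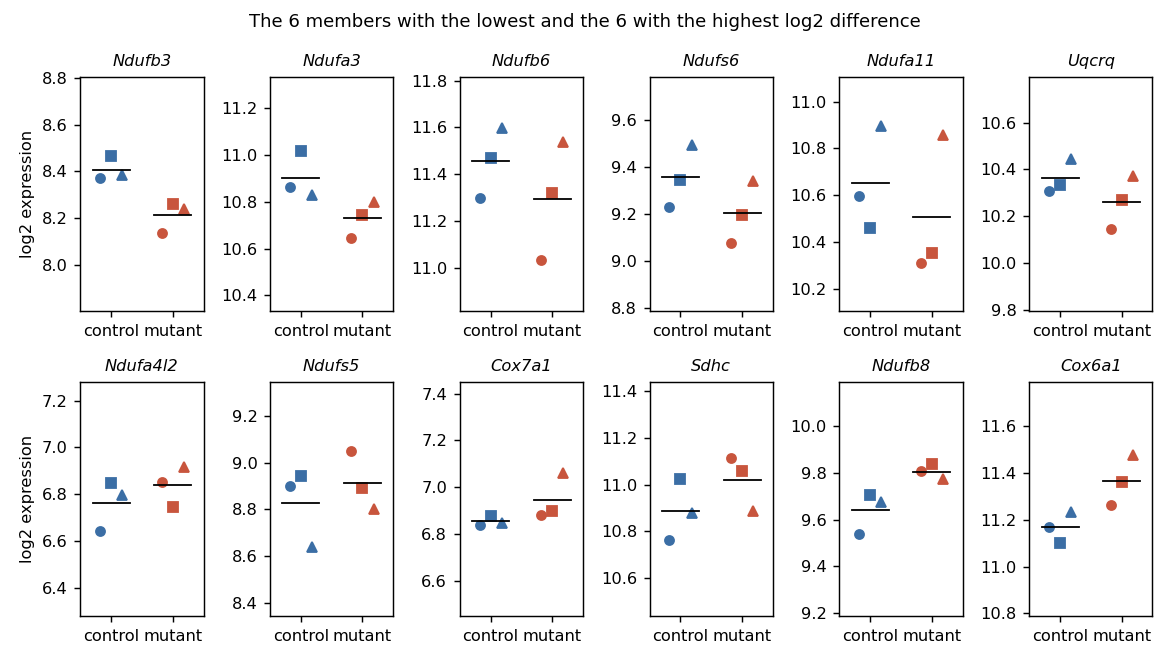
Log2 expression in each array of the 6 members with the lowest differences (top) and the 6 with the highest (bottom), with controls in blue, mutants in red and group means as lines. Circles, squares and triangles are replicates 1, 2 and 3, every panel spans at least 1 log2 unit on an axis of its own, and the groups are apart for Ndufb3, Ndufa3, Cox7a1, Ndufb8 and Cox6a1.

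Complex II, succinate dehydrogenase, is the complex whose subunits are all nuclear, and it also serves the tricarboxylic acid cycle. All 4 of its genes had positive differences, with a median of 0.04, and none was called. Control replicate 1 was the lowest control for all 4. Without it the median was 0.012, and the differences were 0.07 for Sdhc, 0.02 for Sdhd, 0.0030 for Sdha and 0.0026 for Sdhb. Sdhc, a membrane anchor subunit, read 10.76, 11.02 and 10.88 in controls and 11.12, 11.06 and 10.89 in mutants, a difference of 0.13 (interval -0.07 to 0.33). Mutant replicate 3 overlapped the controls. Sdhd, the other membrane anchor, differed by 0.05 (-0.10 to 0.20). Sdha, the flavin subunit, differed by 0.03 (-0.11 to 0.17), and Sdhb, the iron-sulfur subunit, by 0.03 (-0.11 to 0.17). With 4 genes from the same arrays, the shared sign is a count and was not tested.

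Complex III had 9 members, of which 5 were higher and 4 lower, with a median of 0.0021. The number higher was 1 without control replicate 1 and 2 without mutant replicate 3, with medians of -0.05 and -0.04. Cyc1, cytochrome c1, which hands electrons to cytochrome c, read 11.29, 11.34 and 11.30 in controls and 11.34, 11.37 and 11.30 in mutants. The groups overlapped, with a difference of 0.03 ± 0.06 (SE, limma adjusted p = 0.9995). Uqcrfs1, the Rieske iron-sulfur protein, differed by 0.03 (interval -0.21 to 0.27). Uqcrq, a small subunit that holds the complex together, differed by -0.10 (-0.27 to 0.07) and was the lowest of the 9. Uqcr11, another small subunit, had the largest spread of all members. It read 10.03, 9.76 and 10.50 in controls and 9.86, 9.83 and 10.42 in mutants, so replicate 3 was the highest of both groups. Its difference was -0.06 ± 0.20 (SE). Uqcrb, a ubiquinone-binding small subunit, read 11.89, 11.63 and 12.09 in controls and 11.75, 11.68 and 11.99 in mutants. In it too replicate 3 was the highest of each group and replicate 2 the lowest, and its 3 probe sets differed by -0.02 to -0.08.

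Complex IV has a catalytic core from mitochondrial DNA and a ring of nuclear subunits, for several of which there are a widely expressed form and a form restricted to certain tissues or states. Of the 10 members outside the restricted forms, 4 were higher and 6 lower, with a median of -0.03, and none was called. The number higher was 7 without mutant replicate 1, with a median of 0.03, and 2 without control replicate 1. Cox6a1, the widely expressed form of subunit VIa and the gene shown first among the promoters, read 11.17, 11.10 and 11.23 in controls and 11.26, 11.36 and 11.48 in mutants. Every mutant was above every control, with a difference of 0.20 ± 0.07 (SE, limma adjusted p = 0.633). Cox7b read 12.41, 12.41 and 12.40 in controls and 12.24, 12.38 and 12.39 in mutants. The mutants were below the controls, 2 of them by very little, and the difference was -0.07 ± 0.06 (SE, limma adjusted p = 0.9995). A further probe set of Cox7b differed by -0.11. Cox4i1, the main form of subunit IV, differed by -0.04 (interval -0.25 to 0.16), Cox6b1 by 0.02 (-0.16 to 0.21) and Cox8a by 0.06 (-0.10 to 0.21). Cox7a2, the widely expressed form of subunit VIIa, differed by -0.04 (-0.24 to 0.16). Cox7a2l, a related protein that joins complexes III and IV into supercomplexes, differed by 0.07 (-0.11 to 0.25), and its further probe set by 0.16. Cox5a, a subunit that binds a thyroid hormone metabolite, read 10.51, 10.56 and 10.69 in controls and 10.26, 10.52 and 10.70 in mutants. Mutant replicate 1 lay below the other arrays in this gene, and the difference was -0.10 (-0.35 to 0.15).

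The restricted forms comprise muscle forms (Cox6a2, Cox7a1 and Cox8b), forms best known from testis (Cox6b2, Cox7b2 and Cox8c) and 2 forms induced by low oxygen, Cox4i2 and Ndufa4l2. All 8 had positive differences, from 0.0065 for Cox7b2 to 0.09 for Cox7a1, with a median of 0.03, and none was called. This shared sign rested on control replicate 3, the lowest control for 5 of the 8. Without it 3 of 8 differences were positive, with a median of -0.02, and those of Cox4i2 (-0.10), Cox8b (-0.10), Cox6b2 (-0.05), Cox6a2 (-0.04) and Cox7b2 (-0.0080) turned negative. Their mean levels lay between 4.78 and 7.51 beside a median of 7.92 over the genes tested, and RMA compresses differences of dim probe sets. Cox4i2, which replaces Cox4i1 in hypoxia and is also known from brain pericytes, read 7.62, 7.60 and 7.28 in controls and 7.53, 7.44 and 7.58 in mutants. The mutants lay within the range of the controls, with a difference of 0.01 (interval -0.21 to 0.23). Ndufa4l2, a hypoxia-induced relative of Ndufa4, read 6.64, 6.85 and 6.80 in controls and 6.85, 6.74 and 6.92 in mutants. These groups overlapped, with a difference of 0.08 (-0.10 to 0.25). Cox7a1, a form of striated muscle, read 6.84, 6.88 and 6.85 in controls and 6.88, 6.90 and 7.06 in mutants. All mutants were above all controls, though only replicate 3 by more than 0.1, and the difference was 0.09 ± 0.07 (SE, limma adjusted p = 0.9995). Cox6a2 differed by 0.03, Cox6b2 by 0.06, Cox8b by 0.02 and Cox8c by 0.03. Of 15 muscle markers none was called. Their median difference was 0.06, or -0.03 without control replicate 3, which was their lowest array too, with a median deviation of -0.14 from the genes' means. Of 12 pericyte markers none was called, with a median of 0.14, or 0.06 without mutant replicate 1.

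Among 20 genes of oxygen sensing and of the response to low oxygen, 1 rose and none fell. Egln3, a prolyl hydroxylase that marks hypoxia-inducible factors for breakdown, read 8.70, 8.98 and 9.16 in controls and 10.001, 9.84 and 9.83 in mutants. It rose by 0.95 ± 0.11 (SE, limma adjusted p = 0.0136). The call was lost without control replicate 2 or without any 1 mutant, with an adjusted p of up to 0.0952 in limma, and at 0.0849 with the replicate number as a block. Over that list the median was 0.02, 13 of 20 differences were positive, and the lowest was Hif3a at -0.20 (limma adjusted p = 0.850). Beside this rise, the differences of Cox4i2 and Ndufa4l2 were 0.01 and 0.08.

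**Figure D3:**
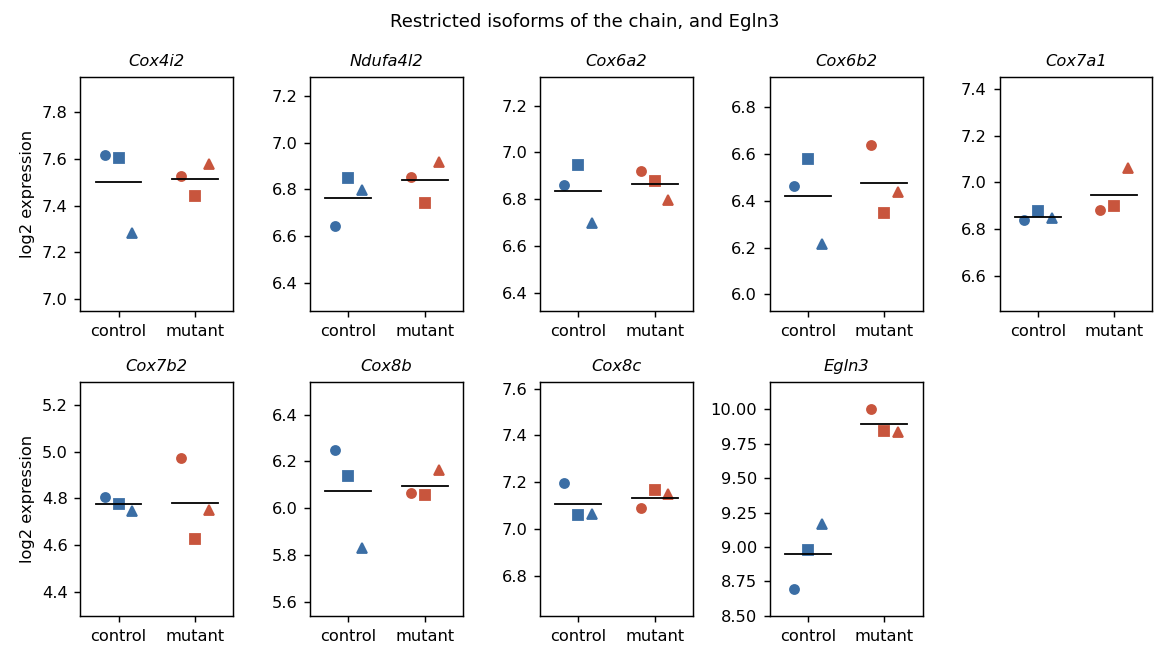
Log2 expression in each array of the 8 restricted forms and of Egln3, with controls in blue, mutants in red and group means as lines. Circles, squares and triangles are replicates 1, 2 and 3, every panel has an axis of its own, and the groups overlap for 7 of the 8 forms but not for Cox7a1 or Egln3.

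Other genes of mitochondrial energy metabolism were also not called. None of 19 ATP synthase genes, 10 genes of cytochrome c and ubiquinone synthesis, 41 assembly factors, 23 regulators of mitochondrial gene expression, 18 enzymes of the tricarboxylic acid cycle and pyruvate dehydrogenase, and 77 mitochondrial ribosomal proteins was called by limma in either direction. Of these, 3 genes had an unadjusted p under 0.05, all among the 77 mitochondrial ribosomal proteins (3.90%), beside 6.05% of all genes. The list medians lay between -0.03 for the regulators and 0.04 for the tricarboxylic acid cycle. Both ends depended on single arrays. Without control replicate 1 the median of the cycle was -0.0033, with 8 of 18 differences positive instead of 13. Without mutant replicate 1 that of the regulators was -0.0013. Among ATP synthase genes, 3 of 19 differences were positive, from -0.14 for Atp5o, of the stalk, to 0.03 for Atp5g3, of the membrane ring. Without mutant replicate 1 the number positive was 10 of 19, and without control replicate 3 it was 9. Suclg2, a succinyl-CoA ligase subunit, had the lowest difference of these lists, at -0.33 ± 0.16 (SE, limma adjusted p = 0.884), and read 9.14, 9.67 and 9.40 in controls and 9.22, 9.23 and 8.76 in mutants. Mrps26, a mitochondrial ribosomal protein, had the highest, at 0.36 ± 0.16 (SE, limma adjusted p = 0.824). Among assembly factors the differences ran from -0.22 for Lyrm7, of complex III assembly, to 0.13 for Taco1, a translational activator of the mitochondrial COX1. The list of regulators ran from -0.15 for Polg2, a subunit of the mitochondrial DNA polymerase, to 0.15 for Tfb1m, a methyltransferase of mitochondrial ribosomal RNA. The cycle ran up to Fh1, fumarate hydratase, at 0.12, and the carriers from Coq7 at -0.11 to Pdss2 at 0.08, both of ubiquinone synthesis. The lowest mitochondrial ribosomal protein was Mrpl42 at -0.26. Of the genes in mitochondrial DNA, COX2 and ND3 had single-symbol probe sets, and each differed by -0.09 (limma adjusted p = 0.9995).

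The members' levels shifted together from array to array within each genotype. Each gene's values were set against its own mean over the 6 arrays, and the median over the 65 members was taken per array. It was -0.06, 0.04 and 0.04 in controls 1, 2 and 3 and -0.07, -0.01 and 0.05 in mutants 1, 2 and 3. Replicate 1 of each group was thus the low array. The SD of these medians was 0.06 in controls and 0.06 in mutants. The same medians over all genes ran from -0.01 to 0.02. RMA sets the arrays to a like distribution and so holds the all-gene medians close together. They therefore give no scale for the shift of a list. Control replicate 1 was the lowest control for 43 of 65 members (66.2%), beside 32.9% of all genes. Mutant replicate 1 was the lowest mutant for 43 of 65 (66.2%), beside 29.1% of all genes.

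The low arrays were not shared by all groups of members. Among complex I accessory genes the medians were -0.08 in control replicate 1 and -0.11 in mutant replicate 1, and among complex IV genes -0.08 and -0.06. For complex III genes they were -0.04 and -0.07, and for complex I core genes -0.06 and -0.0006. Complex II had its lowest median in control replicate 1, at -0.08, and its highest in mutant replicate 1, at 0.06. In the restricted forms the lowest array was control replicate 3, at -0.10, and mutant replicate 1 read 0.04. ATP synthase genes read -0.03 in control replicate 1 and -0.08 in mutant replicate 1, and mitochondrial ribosomal proteins -0.07 and -0.03. The other mitochondrial lists were not low in mutant replicate 1, with 0.03 for the tricarboxylic acid cycle, 0.04 for cytochrome c and ubiquinone synthesis, 0.0026 for assembly factors and 0.02 for regulators. In control replicate 1 these 4 lists had -0.10, -0.02, -0.11 and 0.02. COX2 and ND3 were low in mutant replicate 1, with a median of -0.25. Cytosolic ribosomal proteins, added after the values were seen, had -0.01 in control replicate 1 and -0.10 in mutant replicate 1. Over the members, deviations from the group mean correlated between same-numbered arrays with r of 0.34, 0.54 and 0.71 for numbers 1, 2 and 3, as a description across genes that share these arrays. The r of control replicate 2 with mutant replicate 1 was 0.355, above that of the arrays numbered 1. Over all genes the same r was 0.03, -0.14 and 0.08.

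**Figure D4:**
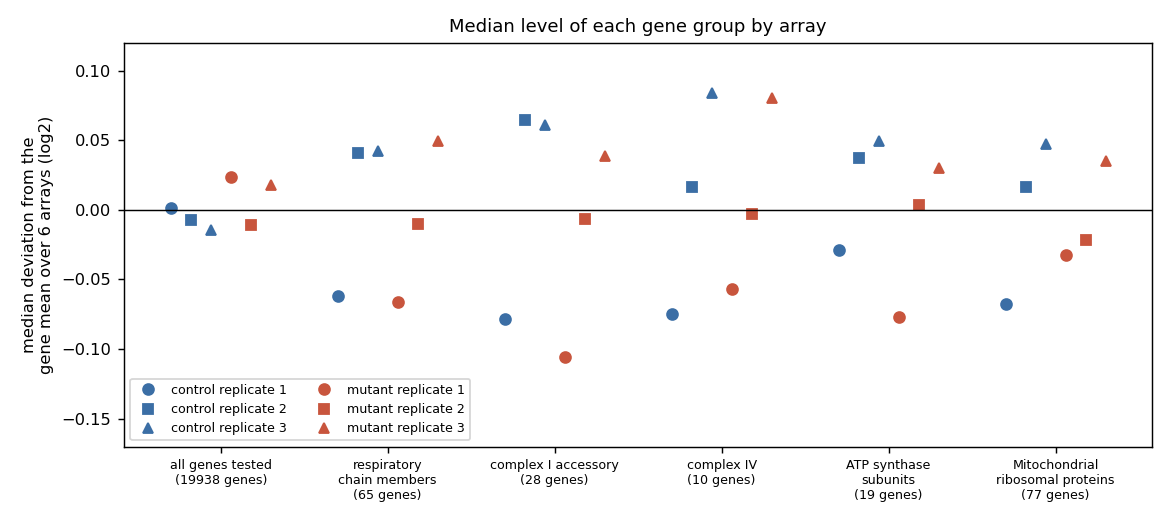
Median over the genes of each group of the deviation from the gene's mean over 6 arrays (log2), for every array, with controls in blue and mutants in red. Circles, squares and triangles are replicates 1, 2 and 3, and for the 65 members replicate 1 lies lowest in both groups, at -0.06 and -0.07.

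Markers of other cells also differed between arrays. All 12 measured markers of meninges and fibroblasts had positive differences, with a median of 0.48, or 0.20 without mutant replicate 1, and their median deviation was 0.79 in mutant replicate 1 and between -0.36 and -0.09 in the other arrays. Of 12 measured erythroid markers 6 were called higher, beside 49 of all 19938 genes. Hbb-bh1 led them at 5.02 (limma adjusted p = 5.92e-05). The list had median deviations of -0.32 to -0.23 in controls and 0.23 to 0.34 in mutants. Of the markers not called, Alas2 and Hbb-y differed by 0.71 and 0.59. The others not called were Klf1 at 0.11, Hemgn at 0.04, Gata1 at 0.01 and Sptb at 0.0026. Of 12 endothelial markers and 12 microglia markers none was called, and both lists were highest in mutant replicate 1, at 0.25 and 0.21. All 12 microglia markers had positive differences, with a median of 0.23. Without mutant replicate 1 all 12 stayed positive, with a median of 0.17. In 6 of the 12 (50%) all mutants were above all controls, beside 7.69% of all genes. Of the endothelial markers 11 were positive, with a median of 0.11, or 7 with a median of 0.02 without mutant replicate 1. The negative one was Mfsd2a at -0.33 (limma adjusted p = 0.126), with all mutants below all controls. The highest was Tek at 0.32 (limma adjusted p = 0.626), with all mutants above all controls. Each is 1 of 12 markers (8.33%), beside 2.85% of all genes apart and lower and 7.69% apart and higher. None of 8 choroid plexus markers was called. In control replicate 1 the medians were -0.20 for meninges and -0.32 for erythroid markers, but 0.11 for choroid plexus and 0.06 for muscle markers, the highest of the 6 arrays for both. The part of these cells in the member values was not tested.

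Some members can be measured only with their copies. Of 74 RefSeq genes that match the naming rule, 71 are protein coding, and several members have processed copies in the genome with nearly the same sequence, so a probe set may read both. Cox7c, Ndufb4 and Ndufb4b had shared probe sets only and were not in the fit. The 3 probe sets of Cox7c differed by -0.04 to -0.06 and the 2 of Ndufb4 and Ndufb4b by -0.10 and -0.11. A further 6 matching genes were not analysed here. Of the members, 10 had more than 1 single-symbol probe set, and in 9 of the 10 these agreed in sign. In Ndufb11 they differed by -0.02 and 0.07.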

How the data were processed

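RNA of neocortex from 6 embryos was measured on Affymetrix Mouse Gene 1.0 ST arrays. Per the submitters' processing notes, the authors used Expression Console and RMA, and the deposited values were taken as log2. Software versions were not given in the sources used here. RMA compresses dim differences, and its quantile step hides a shift of most genes. Probe sets with 1 gene symbol in GEO's platform annotation (21789 of 35556) were used, with the highest mean per gene over 6 arrays. Names were checked against RefSeq (GRCm38.p6, 21698 matched). All genes were fitted in limma 3.58.1 (R 4.3.3) with lmFit and eBayes, no covariate and Benjamini-Hochberg adjustment over 19938 genes, a fit that was tested on simulated data. No value is missing or imputed. Arrays have no read depth, and 3 per group limit the precision.

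Members and lists were chosen with earlier results of these data known. Named were Bcl11a, members past the threshold, the 6 highest and 6 lowest differences, and restricted forms with their widely expressed counterparts. Also named were complex II, Cyc1, Uqcrfs1 and core subunits of complex I. From the other mitochondrial lists and the oxygen-sensing list the called, highest and lowest genes were named. Of the cell type markers only some were named, and not every called one. Uqcr11, Uqcrb, Cox5a, Nrf1, Gabpa, Yy1 and the genes of the last paragraph of the results were named after their values were seen. Replicate numbers were not taken to pair the embryos, since same-numbered arrays did not deviate together over all genes.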

Additional observations from a re-analysis of the deposited data

How the results depend on the processing

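None of the 65 members passed an adjusted p under 0.05 in any of 14 alternative limma fits, nor at 0.1 in the reported fit, and the lowest adjusted p was 0.107, with array weights. At an unadjusted p under 0.05 there were 2 members with median centring, 2 without the arrays numbered 1 (a choice made after the data were seen) and 1 to 5 when 1 array was left out. The fit of genes above the median level tested 57 members. The median difference of the members stayed between -0.04 and 0.02, less than 1 SD of the array medians from 0.0021, with a sign that turned in 7 of the 14 fits. Bcl11a kept its call in each, and the counts of signs by complex without each array were added after the data were seen. Blocking on replicate numbers (replicate block) left 0 of 65 members past the threshold, with a lowest adjusted p of 0.447 and 6 members at an unadjusted p under 0.05. Bcl11a kept its call with the block, and Egln3 lost it. Over all genes 57 passed, and this count was 217 with array weights, 87 with an intensity trend and robust variances, 34 with the block, 30 without the arrays numbered 1, and 20 without control replicate 2 or mutant replicate 2. It was 25 without mutant replicate 1 and 33 without mutant replicate 3. Of 496 values of 36 named members under the alternatives, 49 turned sign, each by less than 1 SD. Gabpa turned to -0.00052 without the arrays numbered 1. The cause was not tested.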
